A study of Mus musculus with 6 samples.

Results

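Horizontal cell nuclei were taken from single-nucleus RNA sequencing of whole retina by a gate on marker genes, and 303 nuclei of 55230 kept barcodes (0.549%) passed it. A barcode was kept when it held at least 300 genes and at most 5% of its unique molecular identifiers (UMIs, each standing for 1 captured RNA molecule) in mitochondrially encoded genes. A kept barcode passed the gate with at least 1 UMI of Lhx1 and at least 1 UMI of 2 or more of the 7 second genes Onecut1, Onecut2, Calb1, Prox1, Slc4a3, Tfap2b and Megf11. It also had to lack the ganglion cell genes Rbpms and Slc17a6 and hold at most 1 UMI over 6 glial, bipolar and cone genes, namely Slc1a3, Slc6a9, Trpm1, Grm6, Arr3 and Pde6c. The members were thus chosen by measured UMIs of these 16 genes. The study compared wild-type C57BL6/J mice at 3 months and at 18 months of age, with 3 libraries of each age. The fatty acid supplementation that the series title names is in none of these groups. Whether a library came from 1 animal or from pooled retinas is not given in the sources used here, so p-values measure the spread between libraries.

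Horizontal cells are inhibitory interneurons of the outer retina. Their processes contact the terminals of rods and cones, gather light signals over a wide area through gap junctions and send feedback to the photoreceptors, which sharpens contrast. The mouse has an axon-bearing type of horizontal cell. The cells arise under Ptf1a and Foxn4, and Onecut and Prox1 factors with Lhx1 set and keep their fate and position.

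The gate held 50, 72 and 75 nuclei in 3-month replicates 1, 2 and 3, and 40, 49 and 17 in 18-month replicates 1, 2 and 3. A gated nucleus had a median of 2895, 3488 and 3012 UMIs at 3 months and of 3424, 2988 and 1367 UMIs at 18 months, with single nuclei from 527 to 10323 UMIs. Summed over gated nuclei a library gave 27581 to 259933 UMIs, the lowest in 18-month replicate 3. Replicate 1 of each age was counted with Cell Ranger release 7.1.0 and the other 4 libraries with 7.2.0, per the file headers. Pairs of libraries shared 11 to 74 barcode sequences, and no gated barcode was shared.

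18-month replicate 3 stood apart from the other libraries before any age comparison. Of the 57 nuclei there that held Lhx1 and passed the exclusions, 22 had none of the 7 second genes, 18 had 1, 8 had exactly 2 and 9 had 3 or more. In the 3-month libraries 49, 70 and 72 nuclei had 3 or more, against 38 in 18-month replicate 1 and 39 in 18-month replicate 2. The median gated nucleus carried 6 second genes in 5 libraries and 3 in 18-month replicate 3. The main age comparisons are therefore given with and without this library. They are also given with a stricter gate of at least 5 second genes, which was added after seeing the data. That gate left 41, 60 and 56 nuclei at 3 months and 34, 30 and 2 at 18 months. Ratios to other nuclei use means over all 6 libraries, this one included.

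**Figure D1:**
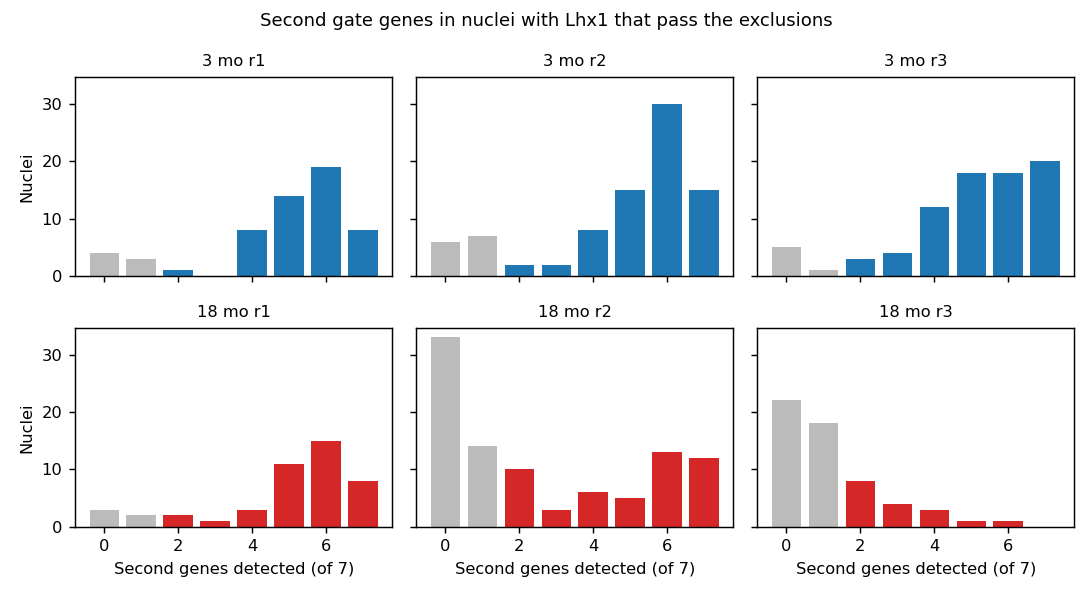
Number of nuclei (vertical axis) by the count of second gate genes detected (horizontal axis, of 7), for nuclei with Lhx1 that pass the exclusions, 1 panel a library; grey bars fall outside the gate. Most nuclei of the 3-month libraries and 18-month replicate 1 carry 4 to 7 second genes, 18-month replicate 2 has a further group of 33 nuclei with none, and 18-month replicate 3 has few nuclei above 4.

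Markers that the gate did not use separated the nuclei by the count of second genes. These 18 genes, among them Pcsk6, Tpm3, Gja10 and Onecut3, summed to 5226 to 9166 counts per 1000000 UMIs (CPM) in nuclei with 5 to 7 second genes, over all 6 libraries. Just inside the gate, nuclei with exactly 2 second genes had 3482 and 5255 CPM in 3-month replicates 2 and 3, from 2 and 3 nuclei, and 698 CPM from the single nucleus of 3-month replicate 1. The same bin had 986, 2167 and 2054 CPM in 18-month replicates 1, 2 and 3, from 2, 10 and 8 nuclei. Just outside it, nuclei with no or 1 second gene had 365 to 1868 CPM. The nuclei nearest to the threshold thus held less of the independent markers than nuclei with 5 or more second genes, and they made up more of the gate in 18-month replicates 2 and 3.

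Among the gate's own genes, whose levels are a description, Lhx1, a LIM homeodomain factor that keeps horizontal cells in their layer, was at 430, 442 and 523 CPM at 3 months and at 457, 490 and 653 CPM at 18 months. Its mean was 126 times that of all other kept nuclei. Slc4a3, an anion exchanger that moves chloride and bicarbonate, was the most abundant gate gene at 3020, 4166 and 4408 CPM at 3 months and 3567, 2996 and 1088 CPM at 18 months. It was found in 97.5 to 100% of gated nuclei in 4 libraries, in 85.7% in 18-month replicate 2 and in 76.5% in 18-month replicate 3, against 9.33 to 25.9% of other nuclei. Prox1, a homeobox factor of horizontal, bipolar and AII amacrine cells, was in 77.6 to 88.0% of the nuclei in 5 libraries and in 47.1% in 18-month replicate 3. The calcium-binding protein calbindin, from Calb1, was in 70 to 84.0% of nuclei in 5 libraries and in 23.5% in 18-month replicate 3, against 5.73 to 10% of other nuclei. Onecut1 and Onecut2, cut-homeodomain factors, were each found in 49.0 to 66.7% of nuclei in 5 libraries, and in 11.8% and 35.3% in 18-month replicate 3. Tfap2b, an AP-2 factor, was in 69.4 to 90.0% and Megf11, a surface receptor that spaces horizontal cells in their mosaic, in 69.4 to 95% in those 5 libraries. Both were in 52.9% of the 17 nuclei of 18-month replicate 3. Nuclei there were also shallower, and with each nucleus thinned to 2000 UMIs 5 of the 17 remained.

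The label was next set against markers outside the gate. Pcsk6, a proprotein convertase, was in 77.6 to 97.2% of gated nuclei in 5 libraries and in 47.1% in 18-month replicate 3, where 2.83 to 7.04% of other nuclei had it. Tpm3, a tropomyosin, was in 85.7 to 98.7% and in 52.9%, and Sept4, a septin, in 73.5 to 97.5% and in 41.2%. Gja10, which encodes connexin 57, the gap junction protein that couples horizontal cells, was in 9.72 to 22.4% of gated nuclei in 5 libraries and in 0.0485 to 0.385% of other nuclei. It had no UMI in the 17 nuclei of 18-month replicate 3, which allows a share of up to 17.6% by counting error alone. Onecut3 was in 21.3 to 47.5% of nuclei in 5 libraries and in 5.88% in 18-month replicate 3. Vim, the intermediate filament vimentin, best known from Müller glia, was in 40.0 to 69.3% and in 29.4%. The 5 deeper libraries thus carried the horizontal cell markers together, and 18-month replicate 3 had the lowest unthinned share for each of these 6. With nuclei thinned to 2000 UMIs, 5 nuclei remained there, and Vim was in 60% of them against 40.5 to 66.7% in the other libraries, Pcsk6 in 60% against 76.5 to 95%, and Tpm3 in 40% against 95.2 to 100%. All kept barcodes, gated nuclei included, had a median of 1035 to 2421 UMIs, against 1367 to 3488 in gated nuclei.

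Adra2a, an alpha-2A adrenergic receptor, was in 20.4 to 60% of gated nuclei in 5 libraries and in 5.88% in 18-month replicate 3, against 0.491 to 1.79% of other nuclei, and averaged 24.6 times their level. Further markers of the list had lower ratios. Megf10, the partner of Megf11 in mosaic spacing, averaged 6.05 times. Sall3, a zinc finger factor of horizontal and cone development, averaged 3.22 times and stayed at or below 30.6 CPM. Atp1b1, a sodium pump subunit, C1ql1, a secreted synaptic organiser, and the neurofilament gene Ina were at 1.42, 1.99 and 1.36 times. Rorb, a nuclear receptor acting early in horizontal cell fate, was at 1233 to 2635 CPM and 2.75 times the other nuclei. Pax6 was at 109 to 457 CPM, 1.28 times. The neurofilament genes Nefl, Nefm and Nefh were at 0.386, 0.344 and 0.469 times, and Tfap2a at 0.795 times. Rprm and the fate genes Ptf1a and Foxn4 had no UMI in any of the 303 nuclei, which allows up to 0.99% of nuclei with a UMI.

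Across the transcriptome, 3548 genes averaged at least 50 CPM in gated nuclei over the 6 libraries, and 65 of them had at least 10 times the mean of other nuclei. The gate chose the cells, so these ratios are given without a test. Behind Lhx1 came Myzap, a junctional plaque protein, at 68.5 times, Tecrl at 58.6 times, Onecut3 at 49.5 times and the noncoding RNA Lhx1os at 46.4 times. Arhgap15, a Rac GTPase-activating protein, was at 2399, 3562 and 3057 CPM at 3 months and at 2586, 3020 and 508 CPM at 18 months, 38.5 times the other nuclei. Gm45459, a long noncoding RNA, was at 1856 to 2243 CPM in 5 libraries and at 1015 CPM in 18-month replicate 3. Wnk4, a kinase that sets the activity of chloride cotransporters, was at 34.0 times, and Slc12a7, the potassium-chloride cotransporter KCC4, at 29.5 times. Prkg2, a cGMP-dependent kinase, was at 29.3 times and F2r, the thrombin receptor, at 28.1 times. The leading 20 also held 9030625G05Rik, Gm28182, Pm20d1, Gm45462, Gm45460, Gm16551, Pcsk6 and Gm12082, at 29.4 to 62.0 times.

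**Figure D2:**
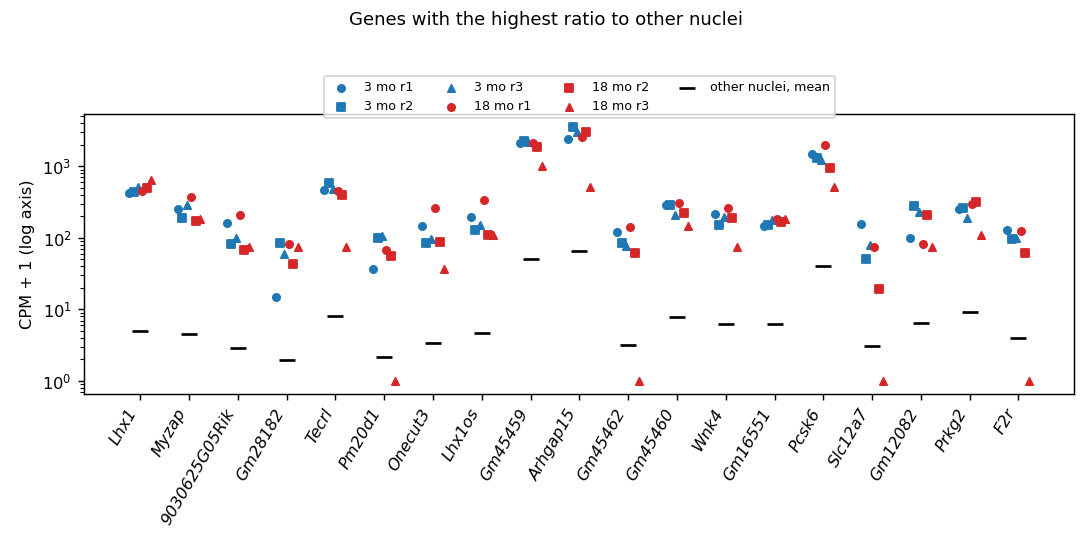
CPM + 1 on a log axis for 19 of the 20 genes with the highest ratio to other nuclei, 1 point a library (blue, 3 months; red, 18 months), with the mean of other nuclei as a bar. In 5 libraries every gene lies above the bar, and 18-month replicate 3, with 17 nuclei, is the lowest library for most of them and at 0 for 4.

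In 18-month replicate 3 these genes were lower as a set. Of 59 genes at 10 times or more that were not gate genes, 55 were below the mean of the other libraries there, with a median of 0.415 times. For each other library the mean was taken without 18-month replicate 3. The median was then 0.733 in 18-month replicate 2, 1.35 in 18-month replicate 1 and 0.903 to 1.09 at 3 months. More abundant genes outside the leading 20, chosen after their values were seen, included Hs6st3, a heparan sulfate sulfotransferase, at 6335 to 8518 CPM in 5 libraries and 3046 CPM in 18-month replicate 3. Thsd7b was at 4105 to 5048 CPM and at 1994 CPM there, and Tnr, the matrix protein tenascin-R, at 2634 to 5107 CPM and at 1668 CPM.

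Several enriched noncoding RNAs lie beside horizontal cell factors. In GENCODE M21 (GRCm38), Lhx1 lies on the minus strand at chr11:84518284-84525535, and Lhx1os on the plus strand at chr11:84525660-84535831, leaving 124 bases between them. Gm16551 at chr9:74847983-74860134 ends 1786 bases before Onecut1 at chr9:74861921-74891781, and Gm28182, on the opposite strand, lies 6535 bases before it. Gm45462 lies inside Gm45459 on the opposite strand at chr8:62749686-62761858. Whether strand was used in counting is not given in the sources used here, so UMIs of that pair are uncertain. The upstream sequences of Lhx1, which defines the gate, and of Arhgap15 and Tpm3, abundant genes outside it that hold an Onecut-type motif, are shown 5′ to 3′ as the 250 bases before the RefSeq start (GRCm38.p6). In Lhx1 (chr11:84525535-84525784, minus strand) capitals mark the 125 bases that the upstream window of Lhx1os also covers. In Arhgap15 (chr2:43748574-43748823, plus strand) and Tpm3 (chr3:90072401-90072650, plus strand) capitals mark the motif.
Lhx1: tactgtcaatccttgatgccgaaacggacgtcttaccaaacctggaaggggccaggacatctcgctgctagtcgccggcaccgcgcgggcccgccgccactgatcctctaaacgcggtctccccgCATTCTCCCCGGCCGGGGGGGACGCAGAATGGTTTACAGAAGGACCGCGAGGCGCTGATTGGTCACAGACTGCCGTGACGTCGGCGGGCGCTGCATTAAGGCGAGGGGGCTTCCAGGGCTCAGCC
Arhgap15: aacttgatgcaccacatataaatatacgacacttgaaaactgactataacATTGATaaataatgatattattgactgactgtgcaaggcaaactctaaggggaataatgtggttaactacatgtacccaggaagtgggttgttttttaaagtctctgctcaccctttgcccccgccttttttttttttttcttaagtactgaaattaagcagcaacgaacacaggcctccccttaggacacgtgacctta
Tpm3: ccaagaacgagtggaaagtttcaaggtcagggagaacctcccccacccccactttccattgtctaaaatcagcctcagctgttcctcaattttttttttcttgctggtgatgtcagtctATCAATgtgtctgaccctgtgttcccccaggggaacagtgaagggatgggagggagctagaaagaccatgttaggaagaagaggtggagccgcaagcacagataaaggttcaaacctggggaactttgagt
The motif was searched as ATCGAT or ATTGAT on both strands and occurred in 7.64% of 27025 upstream windows of this length. Of the 65 enriched genes 41 had a window, and 4 of these (9.76%) held it. The homeodomain motif TAATTA occurred in 4.90% of all windows and in 2 of the 41 (4.88%). Both shares lay near that of all genes. The Lhx1 window held neither motif.

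For the transmitter, genes of GABA synthesis were low. Gad1, a GABA-synthesising enzyme, was at 42.3, 7.69 and 16.7 CPM at 3 months and 22.1, 36.8 and 36.3 CPM at 18 months, 0.343 times the other nuclei, whereas GABAergic amacrine nuclei, gated on Gad1 or Gad2, had 336 to 432 CPM. Gad2 was at 0.171 times the other nuclei. Slc32a1, which loads GABA into vesicles, was at 98.8, 65.4 and 130 CPM at 3 months and at 66.3, 30.6 and 36.3 CPM at 18 months, 1.33 times the other nuclei. These 3 genes were chosen after their values were seen. Glul, glutamine synthetase, an abundant member of the GABA list, was at 111 to 233 CPM.

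Lists for receptors and channels were mixed against other nuclei. Glutamate receptor genes summed to 6286 to 6862 CPM in 5 libraries and 10551 CPM in 18-month replicate 3, against 6596 to 9582 CPM in other nuclei, and potassium and HCN channel genes to 4759 to 11820 CPM against 12034 to 16330 CPM. The most abundant members are given here by the rule for named genes. The glutamate receptor subunit Gria4 was at 1282 to 1735 CPM, 1.89 times the other nuclei, and its scaffold Grip1 at 680 to 1160 CPM. Among GABA receptor genes, Gphn, the scaffold gephyrin, led with a mean 0.781 times the other nuclei. Cacna2d3, an auxiliary calcium channel subunit, was at 1238 to 1901 CPM in 5 libraries and at 798 CPM in 18-month replicate 3, 5.97 times the other nuclei, and Fgf12, a sodium channel modulator, at 1233 to 1548 CPM. Kcnh7, a potassium channel of the ERG family, was at 737 to 1305 CPM. Lsamp, a cell adhesion protein of neurons, was the most abundant listed gene at 19209, 24302 and 21845 CPM at 3 months and at 20169, 22454 and 11240 CPM at 18 months, 4.21 times the other nuclei. Snap25, of the vesicle fusion machinery, was at 3734 to 4384 CPM in all 6 libraries, 3.50 times. Cdh4, a cadherin, was at 5.53 times, the nuclear receptor Esrrg at 3.09 times and Ank2, an ankyrin, at 2.15 times.

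Horizontal cell nuclei made up a smaller share of kept barcodes in each 18-month library. The share was 0.953% (exact 95% binomial interval 0.708 to 1.25), 1.10% (0.863 to 1.39) and 1.08% (0.853 to 1.36) in 3-month replicates 1 to 3. At 18 months it was 0.679% (0.486 to 0.923), 0.303% (0.224 to 0.400) and 0.118% (0.0685 to 0.188), and the ages did not overlap. The intervals cover counting error only. The mean was 1.05% ± 0.0814 (SD, n = 3) at 3 months and 0.366% ± 0.286 (SD, n = 3) at 18 months, a difference of -0.680 percentage points. The exact two-sided permutation test gave p = 0.1, the smallest that 3 against 3 libraries allow.

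The denominator moved as well. 18-month replicates 2 and 3 kept 16177 and 14462 barcodes, against 5247 to 6920 in the other 4 libraries, and the gate found 49 and 17 nuclei among them. Within release 7.1.0 the ages differed by -0.274 points and within 7.2.0 by -0.883 points. The difference without 18-month replicate 3 was -0.555 points. Among barcodes with at least 2000 UMIs, thinned to that number, it was -0.892 points, and with at least 5 second genes -0.578 points. Which nuclei were captured, and how many horizontal cells the retina held, cannot be told apart in these data.

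**Figure D3:**
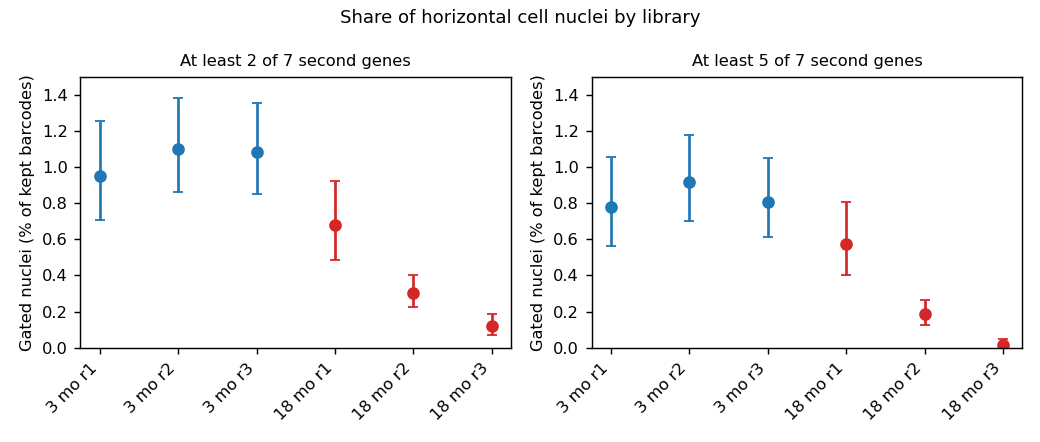
Percent of kept barcodes (vertical axis) that passed the gate in each library, with exact 95% binomial intervals, for at least 2 (left) and at least 5 (right) second genes. Under both rules the 3 libraries at 18 months lie below the 3 at 3 months, and 18-month replicate 3 has the lowest share, 0.118% and 0.0138%.

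Between ages, no gene passed the threshold within horizontal cell nuclei. UMI counts summed per library were tested with edgeR's quasi-likelihood test at a Benjamini-Hochberg adjusted p of at most 0.05, and 0 of 2843 genes were called (0.0%). At an unadjusted p under 0.05 there were 122 genes (4.29%), 61 in each direction (2.15%). DESeq2 called 3 of 2843 genes (0.106%), Sorcs1, Pcdh15 and Cntnap2, all higher at 18 months. Sorcs1 passed the filter on low counts through the 18-month libraries alone, so its call is a description. Without 18-month replicate 1 edgeR called 23 of 3570 genes (0.644%), and without 3-month replicate 1 it called 2 of 3522 (0.0568%). With no filter on low counts it called 42 of 16352 (0.257%), 38 of them higher. It called 0 of 3379 without 18-month replicate 3 (112 at an unadjusted p under 0.05). The median log2 change of all tested genes was -0.04, and 0.16 with scaling by library size alone.

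The lowest p-values belonged to genes of adhesion, sorting and the mitochondrial genome, named after their values were seen. Sorcs1, a sorting receptor of neurons, was at 28.2, 50 and 8.36 CPM at 3 months and at 133, 239 and 471 CPM at 18 months. Every 18-month library was above every 3-month library, and the fitted log2 change was 2.82 ± 0.57 (SE; edgeR adjusted p = 0.531). Csmd1, a transmembrane protein with complement control domains, was at 459, 785 and 598 CPM at 3 months and at 251, 98.0 and 290 CPM at 18 months. Its ages did not overlap, with a log2 change of -1.84 ± 0.41 (SE; edgeR adjusted p = 0.740). Without 18-month replicate 3 the log2 changes of Sorcs1 and Csmd1 were 2.53 ± 0.54 and -1.97 ± 0.43 (SE; edgeR adjusted p = 0.562 for both). Dscaml1, an adhesion molecule of neurite spacing, was at 49.4, 38.5 and 29.3 CPM and at 111, 196 and 326 CPM (edgeR adjusted p = 0.531). The counts behind it were 7 to 10 UMIs at 3 months and 9 to 32 at 18 months. Sorcs1 and Dscaml1 passed the filter on low counts through the 18-month libraries alone, where they are high. Their separation of the ages is therefore a description. Among all tested genes 8.58% had every 18-month library above every 3-month one and 2.64% every one below.

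**Figure D4:**
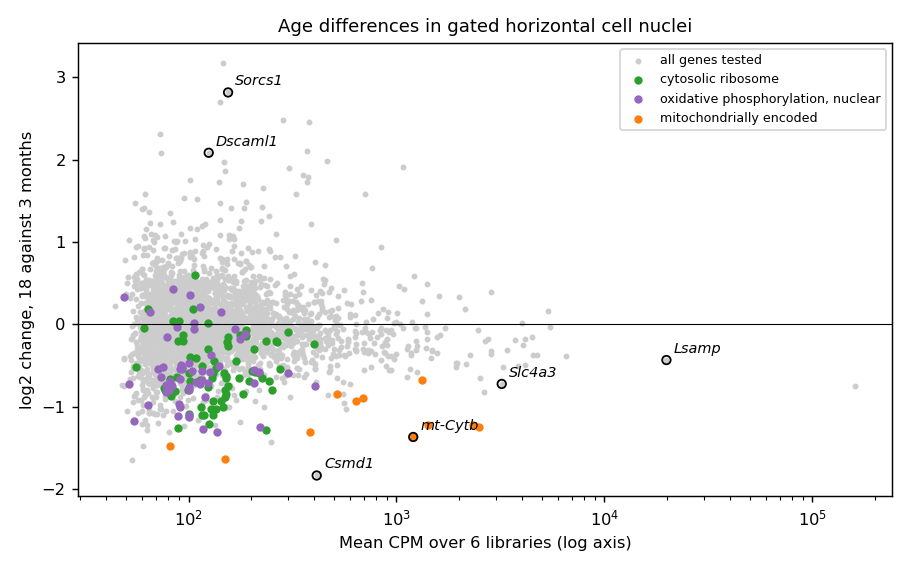
Fitted log2 change at 18 against 3 months (vertical axis) by mean CPM over 6 libraries (log axis) for the 2843 genes tested in gated nuclei. No gene passed the threshold; the 11 mitochondrially encoded genes lie below 0, as do 48 of 55 nuclear respiratory genes and 67 of 73 ribosomal genes.

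Listed genes of energy metabolism and translation had lower values at 18 months, with no member called. All 11 tested mitochondrially encoded genes were lower, with a median log2 change of -1.22, and 7 of them had an unadjusted p under 0.05; over all tested genes 54.0% were lower and the median was -0.04. mt-Cytb, a subunit of respiratory complex III, was at 1976, 1608 and 1397 CPM at 3 months and at 582, 680 and 979 CPM at 18 months (log2 change -1.37 ± 0.28 (SE), edgeR adjusted p = 0.531). At mitochondrial limits of 2 and 10% its log2 change was -0.888 and -1.52 (edgeR adjusted p = 0.9999 and 0.379). mt-Atp6 and mt-Co3, the most abundant of the list, were highest in 3-month replicate 1, at 6753 and 4954 CPM, against 729 to 2520 and 1060 to 2424 CPM elsewhere. The mitochondrial share of every kept barcode was limited, in gated and other nuclei alike. The levels, age changes and p-values of mitochondrially encoded genes, the interaction below included, are therefore a description. The limits on genes and mitochondrial share together left out 41.9% of barcodes in 3-month replicate 1 and 1.12 to 23.8% in the other libraries. The median share in gated nuclei was 2.52, 0.931 and 0.785% at 3 months and 0.703, 0.479 and 0.690% at 18 months. In all kept barcodes it was 1.52 to 2.5% and 1.10 to 1.34%, and mt-Cytb in other nuclei was at 1392 to 2291 and 822 to 1433 CPM. No difference in the age effect on mt-Cytb between horizontal and other nuclei was called (edgeR interaction, log2 -0.82 ± 0.49 (SE), adjusted p = 1).

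Of nuclear genes of oxidative phosphorylation 48 of 55 were lower (median log2 change -0.59) and of cytosolic ribosomal proteins 67 of 73 (median -0.60). Without 18-month replicate 3 these were 55 of 60 and 69 of 74, and the mitochondrially encoded genes were again 11 of 11 lower, with a median of -1.12. The summed levels of the oxidative and ribosomal lists overlapped between ages and did not overlap between counting releases. The ribosomal list summed to 7487 and 4731 CPM in the 2 libraries of release 7.1.0 and to 12394 to 15131 CPM in the 4 of release 7.2.0, and the oxidative list to 4862 and 3508 CPM and to 7671 to 9643 CPM. In other nuclei both lists were lower in the 7.1.0 libraries too. There the ribosomal list summed to 8499, 30673 and 21037 CPM in 3-month replicates 1 to 3. It summed to 6100, 24973 and 17776 CPM in 18-month replicates 1 to 3. The oxidative list there summed to 5279, 17129 and 14157 CPM at 3 months and to 4314, 14428 and 10738 CPM at 18 months. Among named members, Cox4i1 and Ndufa4 were at 111 to 205 CPM in release 7.1.0 and at 319 to 666 CPM in 7.2.0. With release as a term edgeR still called 0 of 2843 genes. Without 18-month replicate 3 that fit called 14 of 3379 (0.414%), of which 3 were higher (Dscaml1, Sorcs1 and AC149090.1). The other 11 were lower (Csmd1, 8 mitochondrially encoded genes, and photoreceptor genes including Rom1). Dscaml1 and Sorcs1 passed the filter on low counts through the 18-month libraries alone, and the gate limited mitochondrial UMIs. The calls of Dscaml1, Sorcs1 and the 8 mitochondrially encoded genes are therefore a description. In the 4 libraries of 7.2.0 alone 44 of 3775 genes were called (1.17%), 43 of them higher. Whether the release itself acted on these values cannot be told apart from other differences between those libraries.

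Rod RNA was present in gated nuclei. Of 18 rod markers 16 were lower at 18 months (median log2 change -0.56), and all 18 were lower without 18-month replicate 3. Their summed level was 10190, 12245 and 10132 CPM at 3 months and 5077, 8173 and 13705 CPM at 18 months. In other nuclei it was 15757, 38451 and 27197 CPM at 3 months and 10634, 25294 and 18192 CPM at 18 months. Gngt1, a subunit of the rod G protein, was at 567 to 1961 CPM. The part of rod RNA in the age values was not tested.

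Among genes of horizontal cell identity outside the gate no member was called. The 3 tested transcription factors that the gate did not use, Onecut3, Rorb and Pax6, had log2 changes of 0.33, -0.48 and -0.36. The other 5 tested factors are gate genes and are not counted. Of 11 tested markers outside the gate 10 were lower with a median of -0.55; without that library 8 of 12 were, with a median of -0.24. Their summed level was 7897, 6452 and 7310 CPM at 3 months and 9049, 5379 and 3299 CPM at 18 months, so 18-month replicate 1 was the highest of all, 18-month replicate 3 the lowest, and the ages overlapped. C1ql1 had an unadjusted p of 0.0488 (edgeR adjusted p = 0.983). Tpm3 was at 4044 and 4399 CPM in the libraries of release 7.1.0 and at 2334 to 2693 CPM in the other libraries but 18-month replicate 3, with 1160 CPM.

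Adhesion genes leaned the other way. Of 41 tested genes of synaptic adhesion and tiling 28 were higher at 18 months (median log2 change 0.25, and 0.09 without 18-month replicate 3), and 7 had an unadjusted p under 0.05 in that direction; over all tested genes 1309 of 2843 were higher and 2.15% had such a p. Nrxn3, a presynaptic neurexin, was at 4178 to 5102 CPM at 3 months and at 5202 to 6635 CPM at 18 months. Of 9 cadherins 6 were higher, with the protocadherin Pcdh9 at 3807 to 4897 CPM in all libraries, and of 14 axon guidance genes 5 were, with the receptors Robo1 and Robo2 at 545 to 1124 CPM. No member of these lists passed the adjusted threshold. Genes can pass the filter on low counts through high 18-month libraries alone, as Dscaml1 did. The counts of higher genes in these lists and in those below are therefore a description.

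Lists for channels, receptors and release differed in how many members were higher at 18 months, against 1309 of 2843 over all tested genes. Of potassium and HCN channel genes 7 of 15 were higher. Kcnip4, an auxiliary subunit of Kv4 channels, was at 301 to 536 CPM at 3 months and at 405, 1458 and 3408 CPM at 18 months, with 5903 CPM on average in other nuclei. Of sodium and calcium channel genes 6 of 20 were higher, of glutamate receptor genes 10 of 15, and of GABA and glycine receptor genes 2 of 7. In the GABA synthesis list 2 of 4 were higher, and Slc32a1 had a log2 change of -1.20 ± 0.47 (SE; edgeR adjusted p = 0.983). In the list of gap junction and feedback genes 3 of 9 were higher, among them Asic2, a proton-gated channel, at 255 to 319 CPM at 3 months and at 332, 496 and 2574 CPM at 18 months. Of vesicle release genes 15 of 26 were higher, of calcium signalling genes, led by the kinases Camk2d and Camk1d, 5 of 13, and of cytoskeletal genes 8 of 32. Growth factor receptor genes, led by Fgfr2 and Igf1r, had 6 of 11 higher, modulatory receptor genes, led by Esrrg and Nr3c2, 2 of 6, and circadian genes, led by Rorb and Rora, 3 of 9. Of fatty acid elongation and desaturation genes, the pathway nearest to the title of the series, 1 of 6 was higher; Scd2 was at 227 to 457 CPM and Tecr at 95.8 to 251 CPM. Of heat shock and unfolded protein genes, led by Hsp90aa1 and Hsp90ab1, 5 of 17 were higher, and the 1 tested immediate-early gene, Jund, was lower.

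Markers of other retinal classes differed in how they stood against other nuclei. The pigment epithelium list summed to 221 to 326 CPM in gated nuclei and to 87.9 to 234 CPM in other nuclei, and Müller glia markers, with Vim among them, to 590 to 1440 CPM and 717 to 1912 CPM. The rod bipolar list summed to 557, 589 and 602 CPM at 3 months and to 877, 919 and 870 CPM at 18 months, all 4 tested members were higher and none was called; in other nuclei it summed to 756 to 1726 CPM. Trpm1 and Arr3, of which the gate admits 1 UMI in all, were each in 23.5% of the nuclei of 18-month replicate 3 and in 1.39 to 14.0% elsewhere. The cone bipolar list had 1 tested member, Grik1, which was higher, the cone list 2 of 3 higher and the amacrine list 1 of 3. Of Müller glia markers 2 of 4 were higher, and the single tested ganglion cell, pigment epithelium and microglial genes, Stmn2, Mitf and P2ry12, had log2 changes of -0.15, -0.01 and 0.32. No endothelial, mural or astrocyte marker was abundant enough to test, and those lists summed to at most 218 and 147 CPM. The part of these classes in the age values was not tested.

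The age difference of horizontal cell nuclei was then set against that of all other kept nuclei, with the library as a term. It differed for 19 of 16436 genes (0.116%), 18 relatively higher at 18 months in horizontal cell nuclei (0.11%) and 1 relatively lower (0.00608%). The filter on low counts was met by either set of nuclei, and 14 of the 19 met it through the other nuclei alone, where they are high, so their count is a description. The remaining 5, Csmd1, Sorcs1, Dab1, Tenm3 and Zfp804b, were among the 2843 genes that passed the filter in gated nuclei. With p-values adjusted over those genes the same 5 were called (0.176%). Sorcs1 passed that filter through the 18-month libraries alone, where it is high. Its call after this adjustment is therefore a description. In gated nuclei Dab1, Tenm3 and Zfp804b averaged 26.2, 32.5 and 120 CPM at 3 months and 268, 250 and 490 CPM at 18 months. Each passed that filter only with the help of its 18-month libraries, where it is high. Their calls after this adjustment are therefore a description too. The 19 genes were named after their values were seen. The 18 comprised adhesion and guidance genes (Cntn4, Cntn6, Cdh11, Tenm3, Ptprm, Dab1), other synaptic and neuronal genes (Sorcs1, Csmd3, Gabrg3, Unc13c, Trhde, Slc35f1, Fmnl2), the regulators Sox6 and Zfp804b, and Gm20754, C130073E24Rik and Gm45321. Csmd1 was the relatively lower gene.

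The 18 genes were low in horizontal cell nuclei at 3 months and abundant elsewhere. They summed to 692, 142 and 109 CPM in gated nuclei at 3 months and to 781, 2494 and 6381 CPM at 18 months, while other nuclei had 5412 to 7812 CPM. 18-month replicate 1 was thus close to 3-month replicate 1, and replicates 2 and 3 were higher. With at least 5 second genes the sums were 678, 86.2 and 115 CPM at 3 months and 818, 1994 and 5025 CPM at 18 months, the last from 2 nuclei. Each of the 18 averaged more in other nuclei than in gated nuclei at 3 months. Csmd3, a paralogue of Csmd1, was at 28.2, 3.85 and 8.36 CPM at 3 months and at 14.7, 202 and 508 CPM at 18 months. Cntn4, a contactin, had 6, 4 and 0 UMIs and then 3, 29 and 19. Tenm3, a teneurin that matches synaptic partners, was at 77.6, 11.5 and 8.36 CPM and then at 22.1, 257 and 471 CPM. Sox6 had no UMI at 3 months and 0, 9 and 1 at 18 months, and Gm45321 none and then 0, 10 and 3; a count of 0 at 3 months allows up to 4.68 CPM.

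Csmd1 and Sorcs1 had ages that did not overlap. Behind their levels were 65, 204 and 143 UMIs of Csmd1 at 3 months and 34, 16 and 8 at 18 months, and 4, 13 and 2 and then 18, 39 and 13 UMIs of Sorcs1. In other nuclei Csmd1 was at 338 to 538 CPM and Sorcs1 at 465 to 650 CPM, and neither separated the ages. The age difference of Csmd1 in horizontal cell nuclei was lower than in other nuclei by a log2 value of -2.13 ± 0.44 (SE; edgeR adjusted p = 0.00324), and that of Sorcs1 higher by 2.62 ± 0.53 (SE; edgeR adjusted p = 0.00307). With at least 5 second genes Csmd1 was at 460, 806 and 635 CPM at 3 months and at 278, 89.3 and 201 CPM at 18 months. Under that gate Sorcs1 was at 25.1, 43.1 and 9.55 CPM and then at 123, 208 and 804 CPM. The values of 18-month replicate 3 under that gate came from 1 UMI of Csmd1 and 4 of Sorcs1 in 2 nuclei, and neither gene was called with that library included (edgeR adjusted p = 0.380 for both).

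The count of 19 rested on the choice of libraries and gate. Without 18-month replicate 2 edgeR called 0 of 16963 genes (514 at an unadjusted p under 0.05). Leaving out 3-month replicate 2 gave 6 of 17163 (0.035%) and leaving out 3-month replicate 3 gave 4 of 16966 (0.0236%). Leaving out 18-month replicate 1 gave 46 of 16618 (0.277%). There were 22 of 17014 (0.129%) without 18-month replicate 3, 16 of them among the 19. With at least 5 second genes 0 were called (556 at an unadjusted p under 0.05), and 6 of 16953 (0.0354%) when 18-month replicate 3 was also left out, namely Csmd1, Csmd3, Sorcs1, Cntn4, C130073E24Rik and Zfp804b. All 6 were among the 19. With at least 3 second genes 13 of 16415 were called (0.0792%), 11 of them among the 19.

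**Figure D5:**
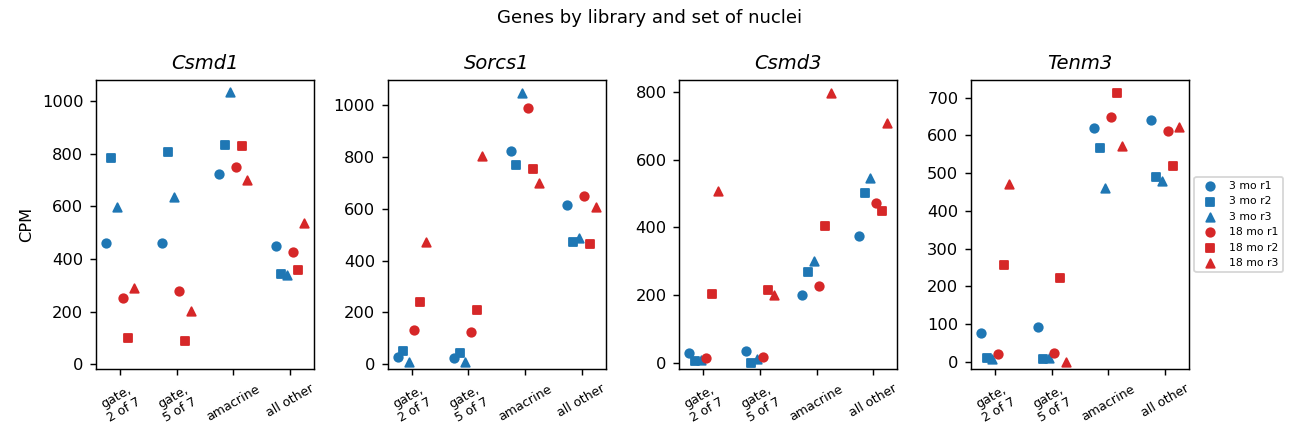
CPM (vertical axis) of 4 genes in each library (blue, 3 months; red, 18 months) for gated horizontal cell nuclei under 2 gates, GABAergic amacrine nuclei and all other kept nuclei. Csmd1 is lower and Sorcs1 higher in the 3 libraries at 18 months in both horizontal cell sets, while Csmd3 and Tenm3 in 18-month replicate 1 lie with the 3-month libraries; 18-month replicate 3 holds 2 nuclei at 5 of 7.

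Against 1220 GABAergic amacrine nuclei, another inhibitory class of the retina, 0 of 6096 genes differed in their age difference (0.0%). By edgeR 320 had an unadjusted p under 0.05. Sorcs1 was at 701 to 1046 CPM and Csmd1 at 701 to 1033 CPM in amacrine nuclei. The difference of age differences was 2.94 for Sorcs1 (edgeR adjusted p = 0.112) and -1.66 for Csmd1 (edgeR adjusted p = 0.320) on the log2 scale. With at least 3 second genes edgeR called 5 of 6050 genes (0.0826%). With at least 5 it called 5 of 5487 (0.0911%), Zfp804b, Cntn4, C130073E24Rik, Epha3 and Sorcs1. Without 18-month replicate 3 as well it called 2 of 6701 (0.0298%), Csmd1 and Sorcs1, both with an adjusted p of 0.0481. Under the main gate edgeR called 65 of 6439 (1.01%) without 18-month replicate 1 and 4 of 6979 (0.0573%) without 18-month replicate 3.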

How the data were processed

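Nuclei of whole mouse retina were isolated and run with a Chromium 3′ droplet kit, per the labels' protocols. The deposited files hold UMI counts per gene and barcode; they were made with Cell Ranger 7.1.0 or 7.2.0, per the file headers, on mm10, per the submitters' processing notes, which also name Seurat. The values were taken as raw counts of 32285 genes, and the lowest barcode total was 500 or 502 UMIs in each library. Barcodes with fewer than 300 genes or over 5% mitochondrial UMIs were left out, and no doublet caller was run; leaving out nuclei over 3 times the median UMIs was an alternative.

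Counts of gated nuclei were summed per library and tested with edgeR 4.0.16 (TMM scaling, low-count filter by age, quasi-likelihood test) with DESeq2 1.42.0 as an alternative, in R 4.3.3. Printed CPM are the summed counts per 1000000 UMIs, without TMM. Interaction tests used both sums of each library with a library term. Amacrine nuclei had at least 1 UMI of Gad1 or Gad2, of Pax6 and of a further marker, none of Lhx1, Rbpms or Slc17a6, and at most 1 over Slc1a3, Trpm1, Grm6, Arr3 and Pde6c. The scripts were tested on simulated data. Gene positions came from GENCODE M21, upstream windows from RefSeq.

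Named genes were gate genes, both horizontal cell lists, the 2 most abundant members of each of 34 lists where none was called, and the 20 genes with the highest ratio to other nuclei at 50 CPM or more; some of these are not reported here, and others are said to be named after their values were seen. The members and lists were chosen with earlier results of these data known, and a lower share of horizontal cells at 18 months was among these, so that share is not independent support.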

Additional observations from a re-analysis of the deposited data

Results flagged for a closer look

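The age difference of 19 genes differed between horizontal cell nuclei and all other kept nuclei by edgeR's interaction test, and each is listed for that reason with its adjusted p. Of these, 14 passed the filter on low counts through the other nuclei alone. Sox6 and Gm45321 had no UMI in horizontal cell nuclei at 3 months, and Ptprm, Slc35f1 and Trhde averaged 2.35, 2.56 and 4.07 CPM there. Within horizontal cell nuclei Sorcs1 passed the filter through the 18-month libraries alone. Dab1, Tenm3 and Zfp804b passed it there only with the help of 18-month libraries, where they are high. For contactins, teneurins, cadherins and related adhesion genes the adjusted p was 0.00307 for Cntn4, 0.0495 for Cntn6, 0.0194 for Tenm3, 0.00032 for Cdh11, 0.0113 for Ptprm and 0.0495 for Dab1. For other neuronal genes it was 0.00307 for Sorcs1, 0.000636 for Csmd3, 0.00324 for Csmd1, 0.00444 for Gabrg3, 0.049 for Unc13c, 0.0248 for Trhde, 0.00519 for Slc35f1 and 0.0189 for Fmnl2. For the regulators it was 0.0293 for Sox6 and 0.0364 for Zfp804b. The genes without a proper name had 0.0005 (C130073E24Rik), 0.00582 (Gm20754) and 0.00884 (Gm45321). Csmd1 was relatively lower at 18 months in horizontal cell nuclei and the other 18 relatively higher. The part that RNA of other cells has in the 18 was not tested; their summed level in other nuclei was 5412 to 7812 CPM.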

How the results depend on the processing

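The count of genes called between ages, 0 in the test as described, was also 0 with RLE or library-size scaling, release as a term, mitochondrial limits of 2 and 10%, at least 3 or 5 second genes, removal of nuclei over 3 times the median UMIs, and thinning to 2000 UMIs. It was 3 with DESeq2, 42 with no low-count filter (38 higher, 4 lower), and 0 to 23 without 1 library. Added after seeing the data, release as a term without 18-month replicate 3 gave 14 and release 7.2.0 alone 44. The difference in share was -1.07 and -0.535 points at mitochondrial limits of 2 and 10%, -0.699 with at least 3 second genes, -1.38 among barcodes of at least 2000 UMIs, and -0.836 to -0.555 without 1 library (exact permutation p = 0.2, the smallest possible there). The 19 genes called against other nuclei became 31 of 16436 (0.189%) with RLE scaling and 0 to 46 without 1 library. They became 13 with at least 3 second genes, 0 with at least 5, and 6 with at least 5 without 18-month replicate 3. They became 5 with p-values adjusted over genes past the filter in gated nuclei (added after seeing the data, as were the gates). Of these, Sorcs1 passed that filter through the 18-month libraries alone, and Dab1, Tenm3 and Zfp804b only with the help of 18-month libraries. Against amacrine nuclei, 0 became 0 to 65 without 1 library, 5 with at least 3 second genes, 5 with at least 5, and 2 with at least 5 without 18-month replicate 3; RLE scaling and that adjustment gave 0. The cause was not tested. Depth limits 18-month replicate 3 most, where a count of 0 allows up to 109 CPM.

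Replicate numbers were shared between ages, but same-numbered libraries had correlations of 0.334, 0.237 and 0.0304 in their deviations from the group means, so the numbers were not taken as pairing. 3-month replicate 3 correlated best with 18-month replicate 2 (0.243). With the replicate block edgeR called 0 genes, and the share differed by -0.680 points (exact paired permutation p = 0.25, the smallest possible).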

Other observations

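Dopamine receptor Drd1 was at 14.1 to 46.0 CPM in gated nuclei, 1.83 times the other nuclei, and Drd2 was found in 18-month replicates 2 and 3 alone. The GABA receptor subunits Gabrr1 and Gabrr2 were at 0.899 and 0.161 times the other nuclei, the gap junction gene Gjd2 at 0.549 times and the channel gene Panx1 at 0.329 times. Among carriers of bicarbonate, Slc4a5 was at 389 to 626 CPM in 5 libraries, 19.6 times the other nuclei, and Slc4a4 at 29.3 to 49.0 CPM, 1.61 times. The carbonic anhydrases Car2 and Car14, which make bicarbonate, were at 0.621 and 0.562 times. Hbb-bs, a globin of red blood cells, was at 762 CPM in gated nuclei of 3-month replicate 1 and at 0 to 12.5 CPM in the other libraries. These genes were chosen after their values were seen.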
